A study of Mus musculus with 5 samples.

Results

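Histone genes were examined in the hearts of male C57BL/6 mice aged 12 weeks, on 3 arrays of wild type animals (replicates 3, 4 and 5) and 2 arrays of Akita animals (replicates 1 and 3). The Akita line has a mutated insulin gene, Ins2, with the other copy intact (written Ins2+/-), and the series' title calls these hearts diabetic. No drug or other treatment is named, and the controls have the same background. The genes were chosen by symbol, as those named H1f, H2ac, H2bc, H3c or H4c with a number, H2a followed by f, j, w, x or z, H3f, or the older Hist1h to Hist4h. Of 22180 genes with a probe set of their own, 35 fitted. By symbol, 23 were named as replication-dependent genes (H1f1 to H1f5, H2ac, H2bc and H4c), 5 were germ-line histones and the other 7 were counted as variants, H2aw among them although its older name, Hist3h2a, is that of a cluster gene. Signals are log2 values, so a difference of 1 is a doubling, and genes whose mean lay under the 30th percentile (4.06) were not tested. This left 15528 genes, 19 histone genes among them: 11 replication-dependent, 6 variant and 2 germ-line. H2ac21 was the member with a second probe set.

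Histones are the proteins around which DNA is wound: H2A, H2B, H3 and H4 form the core of the nucleosome and H1 binds the DNA that links nucleosomes. The replication-dependent genes lie in clusters, have no introns, are transcribed mainly in S phase and make messenger RNA that ends in a stem-loop instead of a poly(A) tail. Most variant histones are made throughout the cell cycle from polyadenylated messages. They replace the S-phase proteins in cells that do not divide, as most adult heart muscle cells do not.

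H2bc3 encodes a core H2B protein and has the older name Hist1h2bb. It was the histone gene that passed the test, so its promoter is shown beside those of the H2B genes H2bc12 and H2bc18, of its neighbour H2ac4, and of H4c9 and H2aj, whose differences below 0 were among the largest. Each line gives the 250 bases before the annotated start from RefSeq (GRCm38.p6), which is not a build named for the arrays. Capitals mark ATTTGCAT, the octamer known from H2B promoters, TATAAA and CCAAT, on either strand; no matches overlapped.
H2bc3 (chr13:23746484-23746733, plus strand): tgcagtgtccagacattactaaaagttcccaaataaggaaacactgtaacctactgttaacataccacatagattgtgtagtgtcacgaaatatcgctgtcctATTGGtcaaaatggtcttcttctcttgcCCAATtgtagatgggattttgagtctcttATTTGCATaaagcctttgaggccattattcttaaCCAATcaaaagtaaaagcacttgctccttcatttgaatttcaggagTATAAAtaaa
H2bc12 (chr13:22035571-22035820, plus strand): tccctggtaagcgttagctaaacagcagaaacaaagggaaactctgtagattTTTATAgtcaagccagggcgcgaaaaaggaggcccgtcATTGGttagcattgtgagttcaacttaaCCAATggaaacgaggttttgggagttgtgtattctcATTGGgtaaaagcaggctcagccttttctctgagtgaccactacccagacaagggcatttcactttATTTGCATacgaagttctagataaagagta
H2bc18 (chr3:96269450-96269699, plus strand): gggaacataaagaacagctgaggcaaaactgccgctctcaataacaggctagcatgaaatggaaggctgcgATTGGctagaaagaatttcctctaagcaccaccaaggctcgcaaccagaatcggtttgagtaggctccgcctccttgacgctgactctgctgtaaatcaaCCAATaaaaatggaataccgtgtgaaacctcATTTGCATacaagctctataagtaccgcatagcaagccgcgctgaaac
H2ac4 (chr13:23750838-23751087, plus strand): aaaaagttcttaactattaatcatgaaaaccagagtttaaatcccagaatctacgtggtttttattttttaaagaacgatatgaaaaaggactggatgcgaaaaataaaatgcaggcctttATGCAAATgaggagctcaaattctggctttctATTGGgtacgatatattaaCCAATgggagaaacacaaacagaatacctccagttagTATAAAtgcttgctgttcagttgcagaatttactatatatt
H4c9 (chr13:22041363-22041612, minus strand): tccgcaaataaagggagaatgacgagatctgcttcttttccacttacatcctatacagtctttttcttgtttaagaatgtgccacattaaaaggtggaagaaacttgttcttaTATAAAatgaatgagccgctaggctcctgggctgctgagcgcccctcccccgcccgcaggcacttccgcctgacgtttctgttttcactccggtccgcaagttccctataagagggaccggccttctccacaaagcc
H2aj (chr6:136807998-136808247, plus strand): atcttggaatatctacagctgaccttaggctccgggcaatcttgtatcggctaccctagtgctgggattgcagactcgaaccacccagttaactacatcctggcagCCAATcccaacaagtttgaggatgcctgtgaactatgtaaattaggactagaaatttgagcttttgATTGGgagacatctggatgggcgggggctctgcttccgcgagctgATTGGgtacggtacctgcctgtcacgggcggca
The octamer of H2bc3 lay 90 to 83 bases before the start, its TATAAA 10 to 5 bases before it, and CCAAT or its complement was found at 3 places. In H2bc12 the octamer lay 30 to 23 bases and in H2bc18 48 to 41 bases before the start. The TATAAA match of H2bc12 lay on the opposite strand, 198 to 193 bases before the start, unlike that of H2bc3. Of 14 promoters of replication-dependent H2B genes, 42.9% held the octamer, against 1.6% of all 32851 promoters of the same length. TATAAA was present in 46.4% of 56 promoters of replication-dependent histone genes and in 12.4% of all, and CCAAT in 82.1% and 33.8%. Of the 17 tested histone genes with a promoter in that table, 4 held all of these motifs: H2bc3, H2bc12, H2ac20 and the germ-line gene H2ac1. Their group differences ranged from 1.62 for H2bc3 through 0.38 for H2ac1 to 0.00 for H2bc12 and -0.07 for H2ac20. A match is a description of the sequence and no evidence of binding.

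H2bc3 rose in Akita hearts. Its log2 signal was 5.34, 5.01 and 5.52 in wild type replicates 3, 4 and 5, and 7.17 and 6.65 in Akita replicates 1 and 3. Both Akita arrays lay above every wild type array by more than the spread within either group. The means were 5.29 ± 0.26 (SD, n = 3) and 6.91 ± 0.37 (SD, n = 2), a log2 difference of 1.62 (SE 0.20, 95% confidence interval 1.15 to 2.09), or 3.07-fold, with adjusted p = 0.0309 by limma over all genes tested. Of 19 histone genes 1 was called, higher, where 0.328% of all genes were called, 0.213% higher and 0.116% lower. At an unadjusted p under 0.05 there were 3 of 19, against 13.6% of all genes: 2 higher, against 4.13%, and 1 lower, against 9.49%. The call ended without wild type replicate 3 (adjusted p = 0.176), wild type replicate 4 (0.0995), Akita replicate 1 (0.0940) or Akita replicate 3 (0.0666), while the difference stayed between 1.36 and 1.88. With an Akita array left out, the gene's own spread came from the wild type arrays alone (2 residual degrees of freedom). The lone Akita sample was assumed to vary as they did. It also ended with array weights (adjusted p = 0.0546), with quantile normalization applied again (0.0553) and with arrays centred on their medians over the genes tested (0.0744). The labels do not state that samples are from separate animals. The p-values rest on spread among the 5 samples alone, some of it possibly technical, and so few arrays give limited precision. For each gene limma drew that spread toward the spread of all genes tested (4.38 prior against 3 residual degrees of freedom). Its standard errors and confidence intervals are therefore not those of the gene's own values alone.

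**Figure D1:**
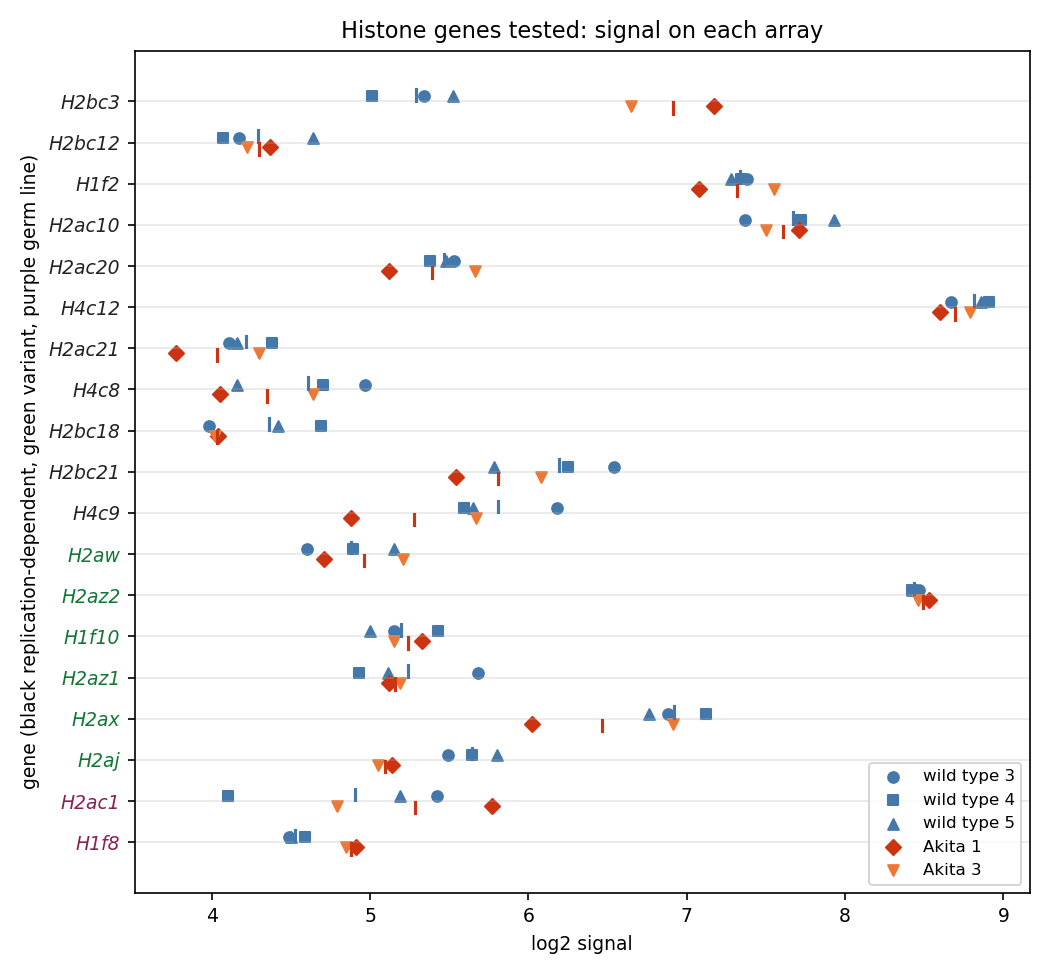
Log2 signal of the 19 tested histone genes on each of the 5 arrays, with a short line at each group mean; gene names are coloured by class. H2bc3 is the gene whose Akita arrays, at 7.17 and 6.65, lie farthest above its wild type arrays.

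The other H2B genes with a probe set of their own were not called. H2bc12 lay at 4.17, 4.07 and 4.64 in wild type and at 4.37 and 4.22 in Akita hearts, a difference of 0.00 (SE 0.18, adjusted p = 0.997 by limma). The groups overlapped completely. H2bc18 lay at 3.98, 4.69 and 4.42 in wild type and at 4.04 and 4.02 in Akita (difference -0.33, SE 0.20, adjusted p = 0.511), and moved to -0.17 when wild type replicate 4 was left out and to -0.53 when replicate 3 was. H2bc21, an H2B gene known to make a polyadenylated message in differentiated cells, lay at 6.54, 6.25 and 5.78 in wild type and at 5.54 and 6.08 in Akita (difference -0.38, SE 0.25, adjusted p = 0.544; -0.11 without Akita replicate 1). Its Akita replicate 3 lay inside the wild type range and its replicate 1 below it. H2bc9, H2bc14 and H2bc22 were under the filter, with differences of -0.15, 0.10 and -0.01 and no test.

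Along the chromosome H2bc3 lies in the large histone cluster, between the pseudogene H2ac5-ps and H2ac4. Of the 20 genes within 10 places of it in the RefSeq gene order, 9 had a probe set of their own, 7 were found in probe sets shared with other histone genes and 4 in neither. The 9 differed by -0.30 to 0.38. Hfe, a regulator of iron uptake, marked the lower end and Slc17a2, a phosphate transporter gene, the upper. These and H1f2 were the 3 tested, and 0 were called, against 0.328% of all genes tested (smallest adjusted p = 0.372 by limma). Hfe lay lower and Slc17a2 higher without overlap, against 19.9% and 9.89% of all genes tested. The rest of the 9 were under the filter, with wild type means of 2.06 to 3.46. H1f2, a linker histone gene 3 places away, lay at 7.38, 7.34 and 7.28 in wild type and at 7.08 and 7.55 in Akita. Its Akita arrays lay on either side of the wild type range, and the difference was -0.02 (SE 0.15, adjusted p = 0.972), with a 95% confidence interval of -0.38 to 0.34. The histone genes H4c2, H4c1 and H1f1 on the other side differed by 0.03, -0.24 and -0.10 at dim signals, and H1f6 by 0.08.

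**Figure D2:**
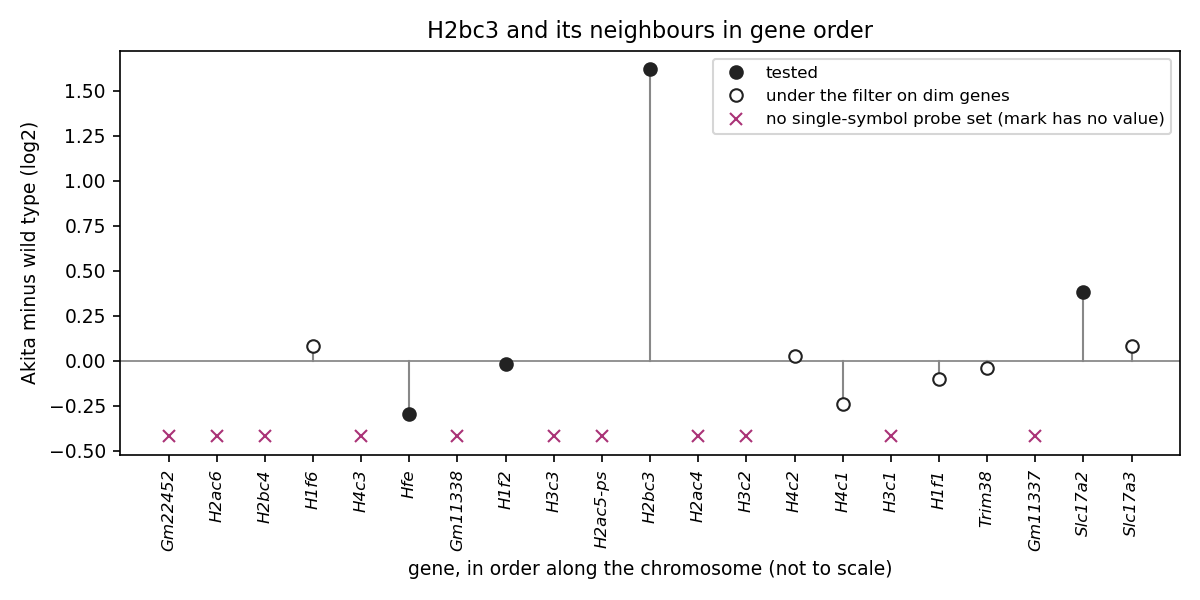
Difference between groups (Akita minus wild type, log2) for genes in order along the chromosome, up to 10 places on either side of H2bc3; crosses mark genes with no value. H2bc3 stands at 1.62 and the 9 measured neighbours lie between -0.30 and 0.38. Of these 9, 3 were tested and the rest were under the filter on dim genes.

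The remaining replication-dependent genes lay slightly lower in Akita hearts without passing the test. Of the 11 tested, 9 lay lower and 2 higher, where 56.5% of all genes tested lay lower. The median difference was -0.12, or -0.15 without H2bc3, against -0.03 over all genes tested. Akita replicate 1 accounted for most of it: measured from the wild type mean, the median without H2bc3 was -0.33 in Akita replicate 1 and -0.05 in replicate 3, with wild type arrays between -0.03 and 0.05. Without Akita replicate 1 the median over the 11 was -0.02, and without Akita replicate 3 it was -0.32. The median over all genes tested was -0.07 in Akita replicate 1 and -0.01 in replicate 3. With the centring over the genes tested, 6 of the 11 lay lower, with a median of -0.02 against 0.06 over all genes tested.

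The H4 genes, which encode the most conserved core histone, showed this pattern. H4c9 lay at 6.18, 5.59 and 5.65 in wild type and at 4.88 and 5.67 in Akita hearts (difference -0.53, SE 0.26, adjusted p = 0.435 by limma). Akita replicate 3 lay within the wild type range and replicate 1 under it; without replicate 1 the difference was -0.14. H4c8 lay at 4.97, 4.70 and 4.16 in wild type and at 4.05 and 4.64 in Akita (difference -0.27, SE 0.26, adjusted p = 0.703), and was 0.03 without replicate 1. H4c12 lay at 8.67, 8.91 and 8.86 in wild type and at 8.60 and 8.79 in Akita (difference -0.12, SE 0.13, adjusted p = 0.727). Groups overlapped in all of these H4 genes.

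Among replication-dependent H2A genes, the signals were close in both groups. H2ac10 lay at 7.37, 7.72 and 7.93 in wild type and at 7.71 and 7.50 in Akita hearts (difference -0.07, SE 0.18), within the wild type range. H2ac20 lay at 5.53, 5.38 and 5.48 in wild type and at 5.12 and 5.66 in Akita (difference -0.07, SE 0.17). H2ac21 differed by -0.18 (SE 0.18, adjusted p = 0.697), and by 0.08 without Akita replicate 1; its dimmer probe set differed by -0.015. The 12 replication-dependent genes under the filter, with wild type means of 2.04 to 3.39, differed by -0.24 to 0.10, and their groups overlapped in every case.

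**Figure D3:**
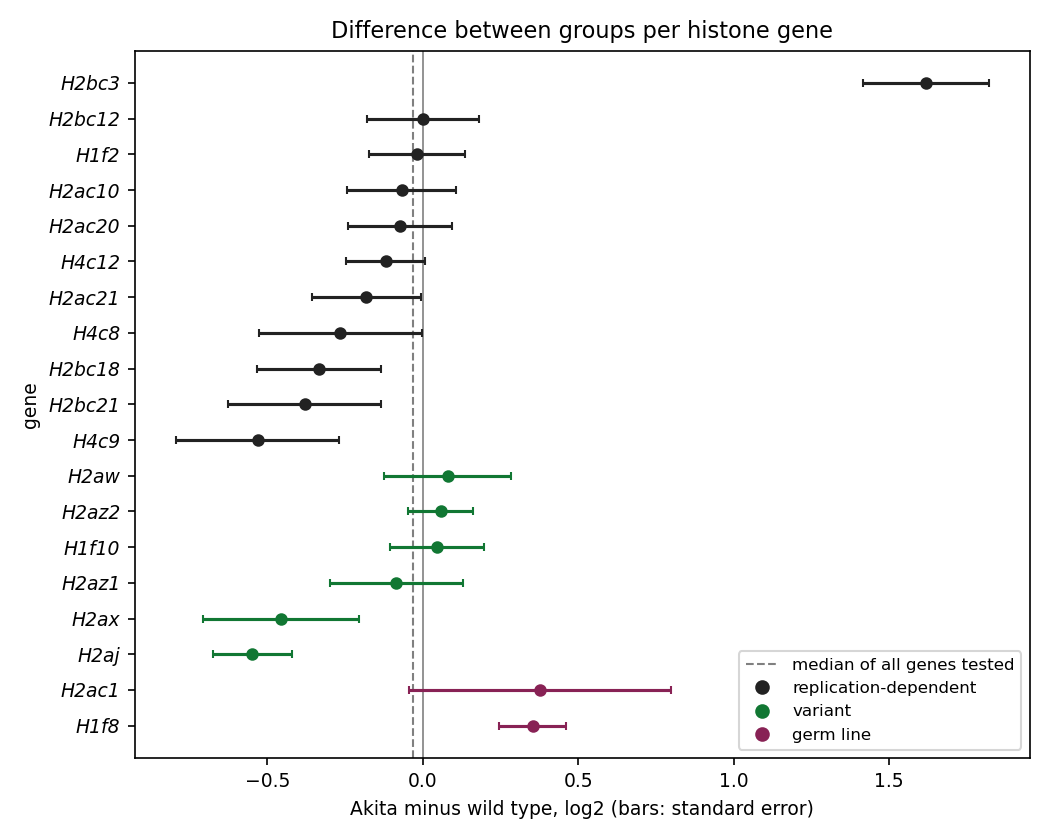
Difference between groups (Akita minus wild type, log2) with its standard error for the 19 tested histone genes, coloured by class; the dashed line is the median of all genes tested, -0.03. H2bc3 lies at 1.62, and the next highest difference is 0.38 (H2ac1).

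Among the variants H2aj differed most. H2aj encodes an H2A variant made independently of replication. Its signal was 5.49, 5.64 and 5.80 in wild type and 5.14 and 5.05 in Akita hearts. Both Akita arrays lay under every wild type array. The means were 5.64 ± 0.16 (SD, n = 3) and 5.10 ± 0.06 (SD, n = 2), a difference of -0.55 (SE 0.13, unadjusted p = 0.00323) that did not pass over all genes (adjusted p = 0.167 by limma) and stayed between -0.63 and -0.45 under the alternatives. In 3 of 19 tested histone genes the groups did not overlap, against 29.7% of all genes. H2aj was the 1 with Akita lower, against 19.9%, and H2bc3 and H1f8 were the 2 with Akita higher, against 9.89%.

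H2ax, whose protein is phosphorylated at DNA breaks, lay at 6.88, 7.12 and 6.76 in wild type and at 6.02 and 6.91 in Akita hearts. Akita replicate 3 lay inside the wild type range and replicate 1 below it. The difference was -0.46 (SE 0.25, adjusted p = 0.478 by limma), -0.01 without Akita replicate 1 and -0.90 without Akita replicate 3. H2az2, encoding an H2A.Z protein that marks promoters and enhancers, lay at 8.47, 8.42 and 8.42 in wild type and at 8.53 and 8.46 in Akita (difference 0.06, SE 0.10, 95% confidence interval -0.19 to 0.30). Its partner H2az1 lay at 5.68, 4.93 and 5.11 in wild type and at 5.12 and 5.19 in Akita (difference -0.09, SE 0.21, 95% confidence interval -0.58 to 0.41).

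The linker variant H1f10 differed by 0.05 (SE 0.15) and H2aw by 0.08 (SE 0.20); in each the groups overlapped. H2aw lay lower in Akita with quantile normalization applied again, and without wild type replicate 3 or Akita replicate 3. The pseudogene H2af-ps2, under the filter, differed by 0.18. Over the 6 tested variants 3 lay higher and 3 lower, with a median of -0.02.

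Set side by side, the median difference was -0.12 for the 11 replication-dependent and -0.02 for the 6 variant genes, -0.10 apart. With H2aw moved to the replication-dependent class the medians were -0.10 and -0.09, -0.01 apart, so the distance rested on where that 1 gene was placed. As first given, the distance ran from -0.18 without Akita replicate 3 to 0.00 without Akita replicate 1 or 0.01 without wild type replicate 5, and was 0.13 with a filter at the 50th percentile, which left 7 and 4 genes. In Akita replicate 1 the class medians were -0.32 and -0.15, and in Akita replicate 3 -0.02 and -0.03. The classes were not separated in a way that held in both Akita arrays. Differences also varied with signal level: over all genes tested, the median difference was 0.05 for those with a wild type mean under 6 and -0.09 for the brighter ones, and over the histone genes it was -0.07 and -0.09; its part in the result was not tested.

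**Figure D4:**
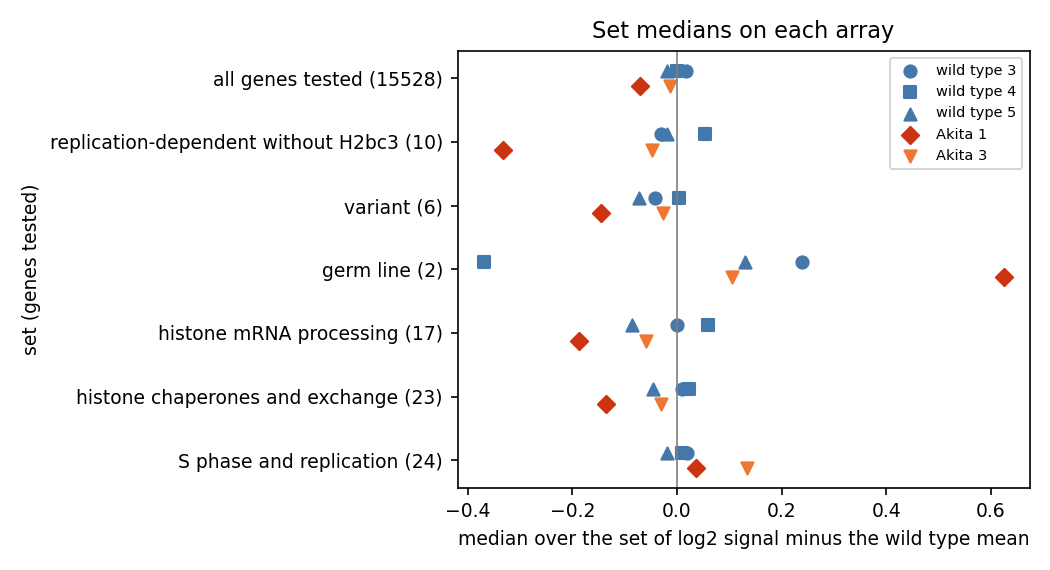
Median over each set of genes of the log2 signal minus the wild type mean, per array, with the number of genes tested in brackets. Replication-dependent histone genes without H2bc3 lie at -0.33 in Akita replicate 1 and -0.05 in Akita replicate 3.

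Germ-line histone genes were near the dim end, with wild type means under 6. Of all 6786 tested genes that dim, 61.1% lay higher and 999 lay higher without overlap. H1f8, the oocyte linker histone gene, lay at 4.49, 4.59 and 4.50 in wild type and at 4.91 and 4.85 in Akita hearts. The groups did not overlap, and the difference of 0.35 (SE 0.11, unadjusted p = 0.0120) did not pass over all genes (adjusted p = 0.242 by limma). H2ac1, the testis H2A gene, lay at 5.42, 4.10 and 5.19 in wild type and at 5.77 and 4.79 in Akita (difference 0.38, SE 0.42, adjusted p = 0.739; -0.11 without Akita replicate 1). Of 8 male germ cell markers 2 were tested (Tex101 and Prm1), both also with wild type means under 6. Their medians were 0.38 on the Akita replicate 1 array and 0.04 on that of replicate 3. Their summed log2 signals were 4.91 to 5.25 in wild type and 5.49 and 5.15 in Akita. Their part in the germ-line histone values was not tested.

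Most cluster genes could be read only through probe sets that several histone genes share. RefSeq lists 83 genes that fit the symbol rule: 35 had a probe set of their own, 40 were listed only in shared ones and 8, H1f0 and H3f4 among them, were not listed. No H3 gene had a probe set of its own. Counting identical rows once, 34 probe sets carried histone symbols alone. Of the 13 that passed the filter, 5 lay higher and 8 lower. Of them 0 were called, against 0.328% of all genes tested (smallest adjusted p = 0.295 by limma, fitted with all other genes). At an unadjusted p under 0.05 there were 4 of 13, against 13.6% of all genes: 1 higher, against 4.13%, and 3 lower, against 9.49%. Groups did not overlap in 7 of the 13, against 29.7%: 3 higher, against 9.89%, and 4 lower, against 19.9%. These sets share genes with each other and are not independent.

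Shared H2B probe sets differed in both directions. A set listed for 12 genes, all named H2bc or H4bc24 and without H2bc3, lay at 9.17, 9.15 and 9.11 in wild type and at 8.76 and 8.90 in Akita hearts (difference -0.31, SE 0.11, adjusted p = 0.295). A set common to H2bc7, H2bc11, H2bc13 and H2bc15 lay at 5.71, 5.40 and 5.95 in wild type and at 6.10 and 6.12 in Akita (difference 0.42, SE 0.17, adjusted p = 0.332). In all of these sets the groups did not overlap. Another set of H2bc7, H2bc11, H2bc13 and H2bc15, at 9.64, 9.83 and 9.71 in wild type and 9.66 and 9.69 in Akita, differed by -0.05. Probe sets of these genes thus disagreed, while those of the 12 genes lay in the same direction.

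For H3, a set of 8 genes encoding replication-dependent H3 lay at 6.70, 6.80 and 6.77 in wild type and at 6.47 and 6.47 in Akita (difference -0.29, SE 0.11, adjusted p = 0.312). Another set of the same genes, too dim to test, differed by -0.74, the lowest value among the shared sets, and others by as much as 0.23. The H2A set of H2ac18, H2ac19 and H2ac20 averaged 9.93 ± 0.09 over the wild type arrays (SD, n = 3) and 10.07 ± 0.10 over the Akita arrays (SD, n = 2), which lay just above the others (difference 0.14, SE 0.12, adjusted p = 0.653). H1f4 was read only together with H2bc4, H2bc6 and H2bc8 (difference -0.34, SE 0.12, adjusted p = 0.308).

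H3f3a and H3f3b encode H3.3, the variant that replaces replication-dependent H3 in cells at rest, and share 7 probe sets with H3f3c or predicted genes. These were chosen after their values were seen and were not tested. Their differences ran from -0.28 to 0.10, 3 higher and 4 lower. The H3f3a set with the highest mean lay at 10.40, 10.41 and 10.50 in wild type and at 10.56 and 10.51 in Akita hearts.

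**Figure D5:**
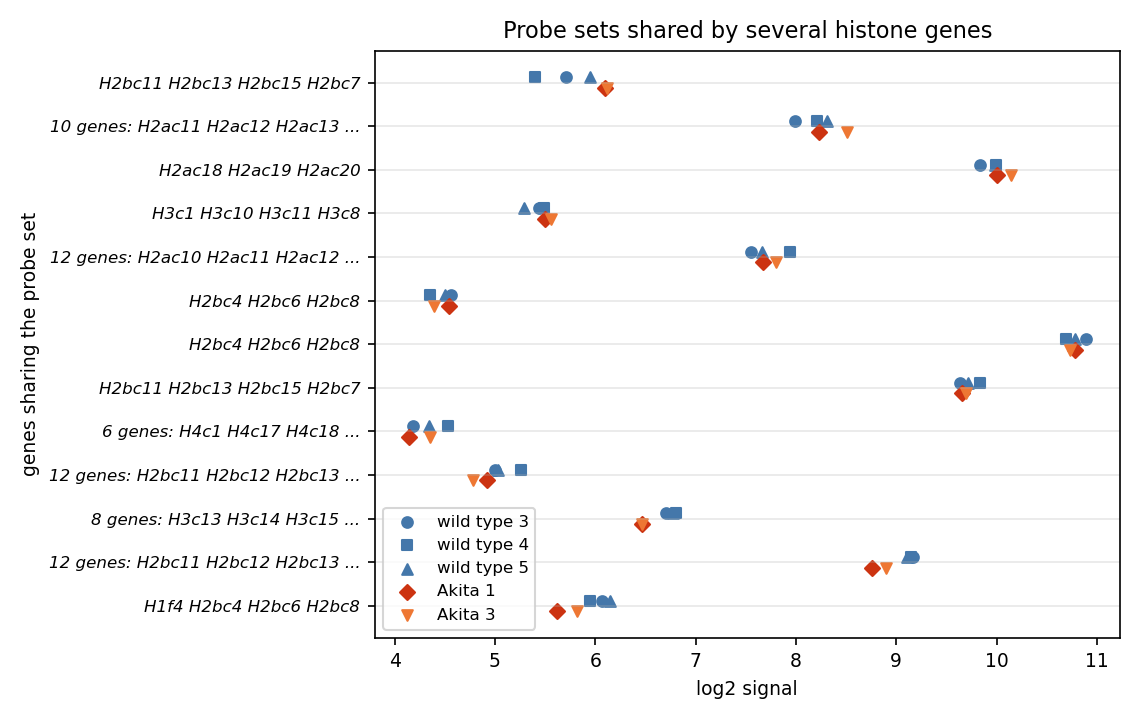
Log2 signal on each array for the 13 tested probe sets shared by several histone genes, ordered by the difference between groups. The differences run from 0.42 for a set of 4 H2B genes down to -0.34 for the set of H1f4, H2bc4, H2bc6 and H2bc8.

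Genes that process histone messages and genes that place histones on DNA were examined as lists. Of 17 genes of histone messenger RNA processing, 15 lay lower and 2 higher, with a median of -0.13 and 0 called. Over all genes tested, 56.5% lay lower and 0.328% were called, so 0 calls says little about a list this short. Most of the list had wild type means of 6 or more, and of all 8742 genes that bright 6139 lay lower, with a median of -0.09. Slbp, which encodes the stem-loop binding protein, differed by -0.03 (adjusted p = 0.942 by limma). Lsm10, a subunit of the U7 particle that cuts the messages, lay at 7.73, 7.67 and 7.50 in wild type and at 7.32 and 7.40 in Akita hearts (difference -0.27, SE 0.12, adjusted p = 0.374). Mblac1, a nuclease gene of histone message processing, lay at 5.20, 5.43 and 5.03 in wild type and at 4.51 and 5.03 in Akita (difference -0.45, adjusted p = 0.356), with -0.19 without Akita replicate 1 and -0.71 without Akita replicate 3. The cleavage enzyme gene Cpsf3 differed by -0.25 (adjusted p = 0.409; -0.17 without Akita replicate 1). The median of this list was -0.19 in Akita replicate 1 and -0.06 in replicate 3. Over all genes with wild type means of 6 or more it was -0.16 and -0.02.

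Of 23 tested genes of histone chaperones and exchange, 17 lay lower and 6 higher, with a median of -0.10 and 0 called. Over all genes tested 56.5% lay lower and 0.328% were called. Most of this list too had wild type means of 6 or more, where 6139 of 8742 genes lay lower. Chaf1a, the large subunit of the chaperone that loads H3 and H4 behind the replication fork, lay at 4.06, 4.19 and 4.35 in wild type and at 4.59 and 4.69 in Akita hearts (difference 0.44, SE 0.13, adjusted p = 0.228 by limma). Nasp, a chaperone gene for soluble H3 and H4, differed the other way by -0.38 (adjusted p = 0.313; -0.20 without Akita replicate 1), as did Dnajc9, a co-chaperone gene for H3 and H4, by -0.45 (adjusted p = 0.303). Both Akita arrays lay above the wild type arrays in Chaf1a and below them in Nasp and Dnajc9. In the whole list 2 of 23 genes lay higher without overlap, against 9.89% of all genes tested. Another 3 lay lower without overlap, against 19.9%.

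Of 24 tested genes of S phase and replication, 18 lay higher and 6 lower (75% higher, against 43.5% of all genes tested), with a median of 0.09. In this list 0 were called, against 0.328% of all genes tested. This was a dim list, with 20 of its 24 wild type means under 6, and of all tested genes that dim 61.1% lay higher, with a median of 0.05. Cdt1, a replication licensing gene, lay at 5.13, 5.52 and 5.30 in wild type and at 5.73 and 5.71 in Akita hearts (difference 0.40, SE 0.14, adjusted p = 0.291 by limma). Mcm6, a subunit of the replicative helicase, differed by 0.26 (adjusted p = 0.374) and Top2a, a topoisomerase gene of dividing cells, by 0.32 (adjusted p = 0.485; 0.03 without Akita replicate 3 and 0.60 without Akita replicate 1). The median of this list was 0.04 in Akita replicate 1 and 0.13 in replicate 3, whereas that of the replication-dependent histone genes was -0.32 and -0.02.

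Heart muscle genes were bright on all arrays: summed over Myh6, Actc1, Tnnt2 and 5 others, the log2 signal was 15.66 to 15.70 in wild type and 15.61 and 15.60 in Akita hearts. Of these 8 genes 7 lay lower, 6 of them without overlap, with medians of -0.07 and -0.08 on the Akita arrays. Over all genes tested 56.5% lay lower, and 19.9% lay lower without overlap. Each of the 8 had a wild type mean of 6 or more. Of all 8742 genes that bright, 6139 lay lower, 2511 of them without overlap, with medians of -0.16 and -0.02 in Akita replicates 1 and 3. Other cell types that could add histone messages were looked at by their markers. Array medians in Akita replicates 1 and 3 were 0.07 and 0.60 for fibroblasts (7 genes), 0.34 and 0.55 for white adipocytes (4 of 7), -0.37 and -0.03 for macrophages (8), 0.16 and 0.03 for T cells and thymocytes (5 of 12) 0.005 and -0.005 for B cells (4 of 6) and 0.05 and -0.05 for erythroid cells (2 of 8). All 4 adipocyte genes and 6 of 7 fibroblast genes lay higher, and 6 of 8 macrophage genes lay lower. None of any list was called, where 0.328% of all genes tested were. Of all genes tested 43.5% lay higher and 56.5% lower. The fibroblast genes and most macrophage genes had wild type means of 6 or more, the range given above in which most genes lay lower. The adipocyte genes Plin1, Cidec and Retn had means under 6, where 61.1% of genes lay higher. Summed log2 signals in wild type and Akita hearts were 12.14 to 12.20 and 12.25 to 12.59 for fibroblasts, 11.57 to 11.71 and 11.96 to 11.97 for adipocytes, 10.51 to 10.69 and 10.14 to 10.49 for macrophages, 6.85 to 7.18 and 6.98 to 7.17 for T cells, and 6.40 to 6.43 and 6.37 to 6.45 for B cells. The adipocyte sum was mainly a reading of 1 gene, Fabp4. Fabp4 lay at 11.59, 11.52 and 11.67 in wild type and at 11.91 and 11.91 in Akita hearts. Plin1, Cidec and Retn, with wild type means under 6, added little to that sum. In this bulk tissue, fewer cells of a type and less RNA per cell cannot be told apart. The part of cell makeup in the histone values was not tested.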

How the data were processed

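RNA from fresh heart tissue was hybridised to 5 whole-transcript arrays (150 ng per sample, biotin label), per the labels' protocols. The authors deposited 1 log2 value for each probe set and array; per the submitters' processing notes the authors used Affymetrix Expression Console, with version, algorithm and build not given in the sources used here. Close array medians (4.53 to 4.71) would hide a change shared by most genes if arrays had been normalized to each other. Of 41345 probe sets, 23521 had 1 gene symbol in the platform annotation, 1814 several, and 16010 were unnamed. The probe set with the highest mean stood for a gene. All 35 histone genes matched RefSeq (GRCm38.p6) by Entrez identifier with 0 symbols changed.

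Group means were compared as Akita minus wild type by a linear model over the whole table (limma 3.58.1, R 4.3.3; lmFit and eBayes, two-sided, 3 residual and 4.38 prior degrees of freedom), with Benjamini-Hochberg adjustment over 15528 genes at 0.05. On simulated data with 200 of 15528 genes changed, 76% of genes given a log2 change of 1 were found again, and 99% of those given 2. Named genes were members past the threshold, the 12 of smallest p, tested variants, members not overlapping and differing by at least 0.5, and up to 3 of smallest p per list; H2bc3's neighbours and genes of a stated role, such as Slbp, were added. The members and lists were chosen with earlier results of these data known. Figures used matplotlib 3.10.9.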

Additional observations from a re-analysis of the deposited data

How the results depend on the processing

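H2bc3 lay higher in Akita hearts under all 14 alternatives (1.36 to 1.88) and was called in 7. Its lower Akita value, 6.65, lay above its highest wild type value, 5.52, so leaving an array out could not turn the sign. Either other filter setting, averaging probe sets, the trend and robust prior and the shared sets left its values and difference (1.62) unchanged. H2bc3 was called in each of these. Among the rest, its call held with arrays centred over all named genes and without wild type replicate 5. Its call ended with array weights (1.65, adjusted p = 0.0546 by limma), quantile normalization again (1.64, 0.0553) and centring on medians over the genes tested (1.71, 0.0744), an alternative chosen after seeing the data; in each of these, 0 histone genes were called. With arrays left out the histone calls ran from 0 to 1. The calls over all genes, 51 as reported, were 28 with array weights, 30 with that centring (25 higher, 5 lower, against 33 and 18), 197 with an intensity trend and robust prior (60 higher, 137 lower), 48 with a filter at the 50th percentile (20 higher, 28 lower), 86 without a filter, and 9 to 40 with an array left out. The median of the replication-dependent genes ran from -0.32 to -0.023 and that of the variants from -0.15 to -0.0175 with an array left out, and the distance between them from -0.18 to 0.005. The variant median was 0.075 with that centring, -0.20 with a filter at the 50th percentile, 0.047 without a filter and -0.084 with quantile normalization again; the distance was 0.13 with the 50th percentile filter. With H2aw counted as replication-dependent, also chosen after seeing the data, the variant median was -0.085 and the distance -0.011. Fewer genes enter under the stricter filter; otherwise the cause was not tested.

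Of 389 values for 31 named genes, 20 turned sign in 10 genes, none of them called. With centring over the genes tested these were Cenpa (0.054), H1f2 (0.076) and H2az1 (0.0092), and with quantile normalization again Cenpa (0.038), H1f10 (-0.018), H1f2 (0.060) and H2aw (-0.014). Without an array, ranges were -0.05 to 0.17 for H1f10, -0.25 to 0.22 for H1f2, -0.17 to 0.46 for H2ab2, -0.11 to 0.87 for H2ac1, -0.45 to 0.083 for H2ac21, -0.17 to 0.33 for H2aw, -0.24 to 0.14 for H2az1, -0.56 to 0.03 for H4c8 and -0.21 to 0.075 for H4f16. No paired analysis was possible because the groups share 1 replicate number. Depth is not defined for arrays; no detection calls were used, so which dim probe sets lie above background is unknown.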

Other observations

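Histone genes outside the symbol rule were listed too, and 6 of 18 were tested, with 0 called, against 0.328% of all genes tested. Macroh2a1, encoding the large H2A variant macroH2A, lay at 7.58, 7.72 and 7.43 in wild type and at 7.35 and 7.44 in Akita, a log2 difference of -0.18 (SE 0.13) with adjusted p = 0.572 by limma. Cenpa, the centromeric H3 gene, differed by -0.04 (adjusted p = 0.909) and H4f16, a core H4 gene outside the large cluster, by -0.10 (adjusted p = 0.855). The germ-line H2A genes H2ab1 and H2al2a lay at 4.18, 4.56 and 4.37 and at 4.90, 5.08 and 5.16 in wild type, and at 5.05 and 4.60 and at 5.50 and 5.21 in Akita hearts. In both genes the groups did not overlap, with log2 differences of 0.46 and 0.31 (adjusted p = 0.322 and 0.390 by limma). Of all genes 9.89% did not overlap with Akita higher. Both genes had wild type means under 6, where 999 of 6786 tested genes lay higher without overlap and 61.1% lay higher. Without Akita replicate 1 the differences were 0.23 and 0.16. H2ab2, of the same family as H2ab1, differed by 0.15 (adjusted p = 0.785).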
